A study of Mus musculus with 8 samples.

Results

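The exchangers and cotransporters described here belong to 8 families of solute carriers, Slc4, Slc8, Slc9, Slc12, Slc20, Slc24, Slc26 and Slc34. They comprise every gene symbol that starts with one of these family names followed by the letter a and a digit, without Slc4a2 and Slc12a2, and came to 54 of the 20377 symbols measured. Of these, 51 encode transporters, and 3 are carried in by their names: Slc9a3r1 and Slc9a3r2, the PDZ scaffolds NHERF1 and NHERF2, and Slc4a1ap, kanadaptin. The families held 10 members (Slc4), 3 (Slc8), 12 (Slc9), 8 (Slc12), 2 (Slc20), 6 (Slc24), 10 (Slc26) and 3 (Slc34). In 11 cases a symbol had more than 1 transcript, and the one with the highest summed count was used. RNA sequencing was done on duct cells from the liver of wild-type C57BL/6 mice, isolated by flow cytometry as MIC1-1C3+ CD26- cells free of blood cells. These were divided by their ST14, a membrane serine protease also called matriptase, into ST14high and ST14low, with 4 libraries each. Genotype, strain, tissue and the first gates were the same in both populations. The labels state neither age nor whether the 4 samples of a population came from separate animals, so p-values reflect how far these samples scatter, and that scatter may be technical.

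Bile duct epithelium modifies bile by moving acid, base, chloride and water across its cells. Slc4 proteins carry bicarbonate, either in exchange for chloride or together with sodium, and Slc9 proteins exchange sodium for protons. Slc12 proteins carry chloride with potassium, sodium or both, and Slc26 proteins exchange chloride, bicarbonate, sulfate and other anions. Slc8 and Slc24 proteins use the sodium gradient to extrude calcium, and Slc20 and Slc34 proteins use it to take up phosphate. The gradient itself is kept by the sodium pump, and carbonic anhydrases supply bicarbonate and protons to the exchangers.

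The shallowest library, ST14low replicate 3, had 6398307 counts, the next 17418202 and the deepest, ST14high replicate 3, 42769988. The 9 duct markers, among them Krt19, Epcam and Sox9, were present in all libraries and summed to 12410.3 to 22624 CPM in ST14high and 17222 to 23979.7 CPM in ST14low. Spp1 made up most of each sum, at 8586 to 19979 CPM in ST14high and 15060 to 21603 CPM in ST14low. The sum and Spp1 were lowest in ST14high replicate 1, where 4 of the 9 markers were highest, among them Krt19 (1522 CPM) and Cldn4 (603 CPM). Hepatocyte markers, 7 genes, summed to 4787 to 12153 CPM in ST14high and 7578 to 14015 CPM in ST14low. Alb made up most of each of these sums, at 3930 to 10271 CPM in ST14high and 5878 to 11559 CPM in ST14low. CPM are counts scaled to a common library size after TMM correction for composition. ST14high replicate 1 lay at -107 on the main axis of a principal component analysis, the others at -11.5 to 55.5, and results are therefore also given without it. Transcripts of St14 itself lay at 290.3, 286, 354 and 291 CPM in ST14high replicates 1 to 4 and at 344, 391, 278 and 306 CPM in ST14low replicates 1 to 4, a log2 fold change of -0.11 (SE 0.15) with an adjusted p of 0.809 in edgeR, and the populations overlapped. In bulk RNA, fewer cells of a type and less RNA per cell cannot be told apart.

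By length-corrected level (RPKM), the scaffold Slc9a3r1 was the most abundant member, with 134 ± 13.9 RPKM in ST14high and 133 ± 29.6 in ST14low (mean ± SD, n = 4 in each, here and for all RPKM below). Among the transporters, Slc12a7, the potassium-chloride cotransporter KCC4, had the highest mean in both populations, with 56.9 ± 3.23 and 59.5 ± 5.59 RPKM. Slc12a8, a cotransporter homologue, had 43.3 ± 2.98 and 55.4 ± 9.95 RPKM. Slc4a4, the electrogenic sodium-bicarbonate cotransporter NBCe1, had 55.5 ± 60.2 and 26.02 ± 11.9 RPKM, and Slc4a3, the chloride-bicarbonate exchanger AE3, had 44.7 ± 12.5 and 27.5 ± 5.28 RPKM. Slc20a2, Slc9a3r2, Slc12a4, Slc9a8 and Slc4a1ap were also among the 12 members of highest mean over all 8 libraries, from 30.2 RPKM for Slc20a2 down to 15.6 RPKM for Slc4a1ap. Slc26a3 entered these 12 at 14.8 RPKM through ST14high replicate 1, with 29.5 ± 53.2 RPKM in ST14high and 0.212 ± 0.224 in ST14low. Summed over members, Slc9 came to 244 ± 42.0 RPKM in ST14high and 233 ± 27.9 in ST14low, and Slc12 to 155 ± 4.83 and 166 ± 12.8. Most of the Slc9 sum came from the scaffolds and not from exchangers. These were Slc9a3r1, at the levels above, and Slc9a3r2, at 26.55 ± 3.26 RPKM in ST14high and 31.5 ± 7.03 in ST14low. Slc4 summed to 124 ± 50.8 and 75.9 ± 19.5 RPKM and Slc26 to 55.0 ± 62.5 and 23.0 ± 3.20. ST14high replicate 1 held the highest sum for both of these, at 199.6 RPKM for Slc4 and 148 RPKM for Slc26.

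**Figure D1:**
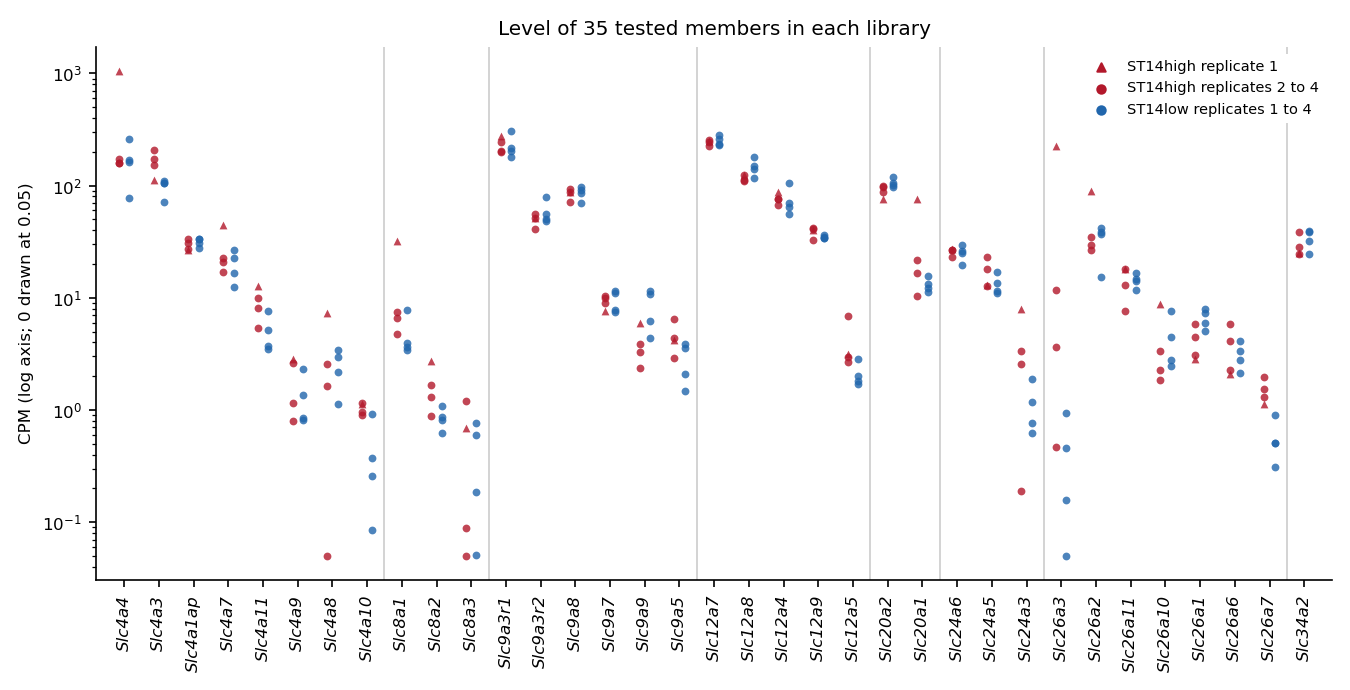
CPM (log axis, values of 0 drawn at 0.05) of 35 of the 38 tested members in each library, grouped by family, with ST14high in red (replicate 1 as a triangle) and ST14low in blue. Members of the Slc9 and Slc12 families mostly lie close together across libraries, while ST14high replicate 1 lies far above the rest for Slc4a4 (1046 CPM) and Slc26a3 (223 CPM).

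Of the 54 members, 38 had enough counts to be tested. The 16 others fall into 3 sets. Slc12a1 (NKCC2) and Slc34a1, cotransporters of the kidney tubule, had no count in any library. Slc24a4, Slc26a4, Slc26a5, Slc9a10, Slc12a3, Slc24a2, Slc4a5, Slc24a1, Slc4a1 and Slc34a3 had 1 to 62 counts in all and at most 1.26 CPM in a library. They include pendrin (Slc26a4), prestin of the hair cell (Slc26a5), the thiazide-sensitive cotransporter (Slc12a3) and the red cell anion exchanger band 3 (Slc4a1). Slc9a2, Slc9a3, Slc9a4 and Slc26a9 were high in ST14high replicate 1 and are described with it. Of the tested members, 32 were past the count filter of 0.421 CPM in all 8 libraries. The filter asks for 4 libraries. Slc26a3, Slc4a10 and Slc26a7 were past it in all 4 ST14high libraries but in only 2, 1 and 3 ST14low libraries. They thus passed through ST14high, where their means were higher. Slc8a3 was past it in 2 libraries of each population.

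Between the populations, the bicarbonate exchanger Slc4a3 and the scarce anion exchanger Slc26a7 were higher in every ST14high library than in any ST14low library. The endosomal proton exchanger Slc9a9 and the cotransporter homologue Slc12a8 had lower means in ST14high. Slc26a3, Slc20a1 and Slc8a1 had higher means there, with most of the difference in ST14high replicate 1. No member passed an adjusted p of 0.05 in edgeR's quasi-likelihood test. The smallest adjusted p was 0.282, and 0 of 13749 genes (0%) passed it. At an unadjusted p under 0.05 there were 8 of 38 members (21.1%), against 9.56% of all genes tested. Of the 8, 6 were higher in ST14high (Slc26a3, Slc4a3, Slc26a7, Slc8a1, Slc4a11 and Slc20a1), where the share of all genes was 6.89%. The other 2, Slc9a9 and Slc12a8, were lower in ST14high, where the share of all genes was 2.68%. The fold change was above 0 for 25 members (65.8%) and for 50.3% of all genes. Its median was 0.22 on the log2 scale, against 0.0023 over all genes. DESeq2's Wald test also called 0 of 37 members with an adjusted p, the smallest being 0.065 for Slc4a3, and 1.72% of all genes. Libraries of the populations did not overlap for 2 members (5.26%), Slc4a3 and Slc26a7, both higher in ST14high, against 4.09% of all genes higher, 2.33% lower and 6.42% in either direction. Slc26a7, like Slc26a3 among the 8, passed the count filter through its ST14high libraries, so neither adds weight to these counts. Without ST14high replicate 1 the members' median was 0.045 (all genes -0.015), and 4 of 38 members (10.5%) had an unadjusted p under 0.05, close to the 9.7% of all genes. The count was also 4 without ST14high replicate 2 or ST14low replicate 2, and 5 without ST14high replicate 4 or ST14low replicate 1. The count without overlap was 4 without ST14high replicate 4 or ST14low replicate 2, 6 without ST14low replicate 3 or 4, and 12 without ST14high replicate 3, each with 3 libraries against 4. With a library left out, the share of all genes was taken only for the unadjusted p without ST14high replicate 1. The other counts with a library left out therefore say nothing about the members in particular.

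**Figure D2:**
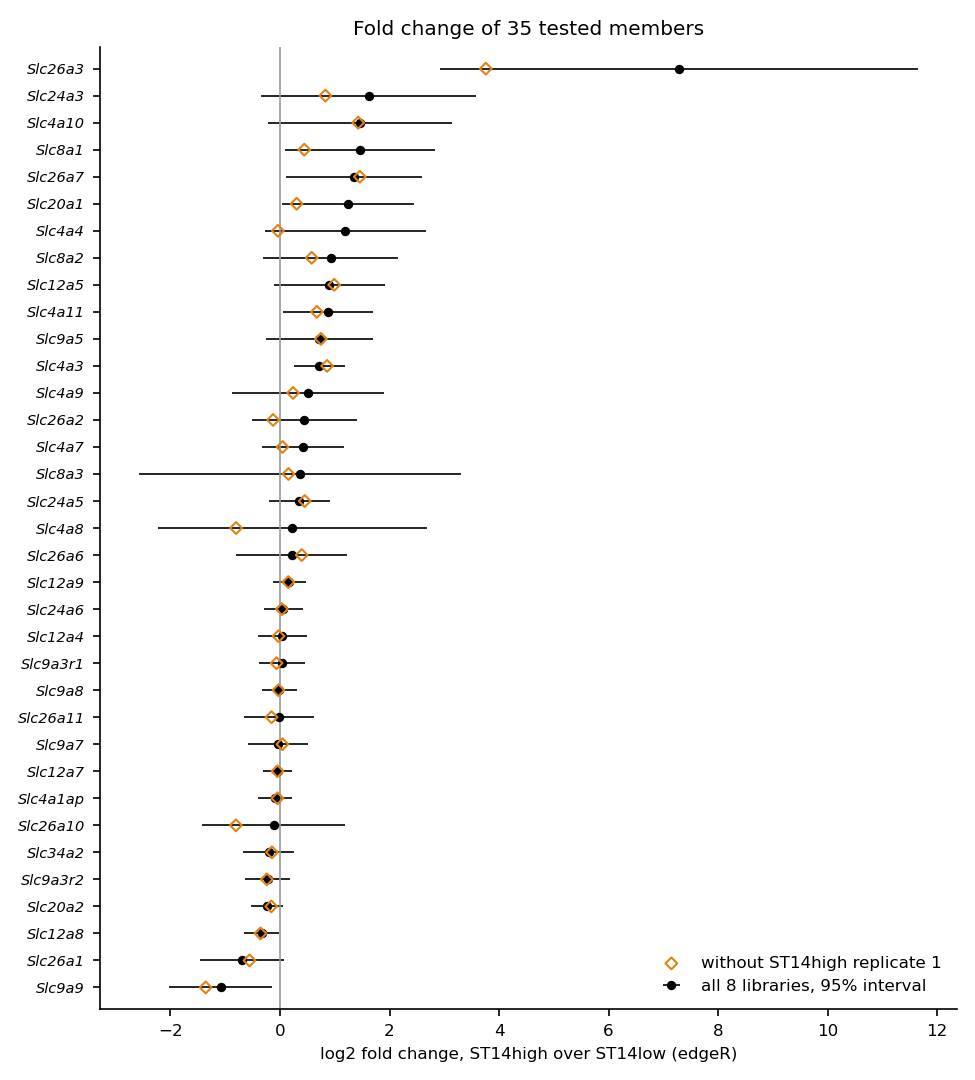
log2 fold changes of 35 of the 38 tested members, ST14high over ST14low, from edgeR with all 8 libraries (black points with 95% intervals) and without ST14high replicate 1 (open diamonds). The diamonds of Slc4a4, Slc20a1 and Slc8a1 lie nearer to 0 than the points, at -0.038, 0.30 and 0.44, while that of Slc4a3 lies at 0.86 beside a point at 0.72.

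In the bicarbonate family Slc4, the exchanger Slc4a3 was measured at 111, 174, 208 and 152 CPM in ST14high replicates 1 to 4 and at 106, 72.1, 104 and 109 CPM in ST14low replicates 1 to 4. The highest ST14low library lay just under the lowest ST14high library, which was replicate 1, and the populations did not overlap. On the log2 scale ST14high was higher by 0.72 (SE 0.21), 95% interval 0.26 to 1.18, and the adjusted p in edgeR was 0.310. The exact two-sided permutation p over the 70 arrangements of the libraries was 0.0286, the smallest this design can give. Without ST14high replicate 1 the fold change was 0.86, and DESeq2 then gave an adjusted p of 0.00187, in a fit that called 2.04% of all genes. Slc4a11, a relative of the family known from the corneal endothelium, was at 12.7, 8.04, 10.01 and 5.40 CPM in ST14high replicates 1 to 4 and at 5.16, 3.69, 7.56 and 3.502 CPM in ST14low replicates 1 to 4. Its ST14high libraries were mostly higher, and replicate 4 overlapped with ST14low. This gave a log2 fold change of 0.87 (SE 0.37) and an adjusted p of 0.504 in edgeR.

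Slc4a4, which brings bicarbonate into the cell with sodium, was at 1046, 173, 158 and 158 CPM in ST14high replicates 1 to 4 and at 162, 76.9, 262 and 170.2 CPM in ST14low replicates 1 to 4. ST14high replicate 1 lay far above all others, while the other 3 ST14high libraries lay within the range of ST14low. The fold change of 1.20 (SE 0.66) had an adjusted p of 0.584 in edgeR and became -0.038 without that library. Slc4a8, a sodium-driven chloride-bicarbonate exchanger, was scarce at 0 to 7.26 CPM, with a fold change of 0.23 (SE 1.10) that was -0.80 without ST14high replicate 1. Kanadaptin (Slc4a1ap) was even at 26.8 to 33.3 CPM, with a fold change of -0.087 (SE 0.14). Slc4a7 (12.6 to 44.5 CPM), Slc4a9 (0.796 to 2.84 CPM) and Slc4a10 (0.0852 to 1.154 CPM) completed the tested members of the family. Slc4a2, the chloride-bicarbonate exchanger AE2 that was set aside by the rule, lay at 141 to 209 CPM, with a fold change of 0.052 (SE 0.16).

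**Figure D3:**
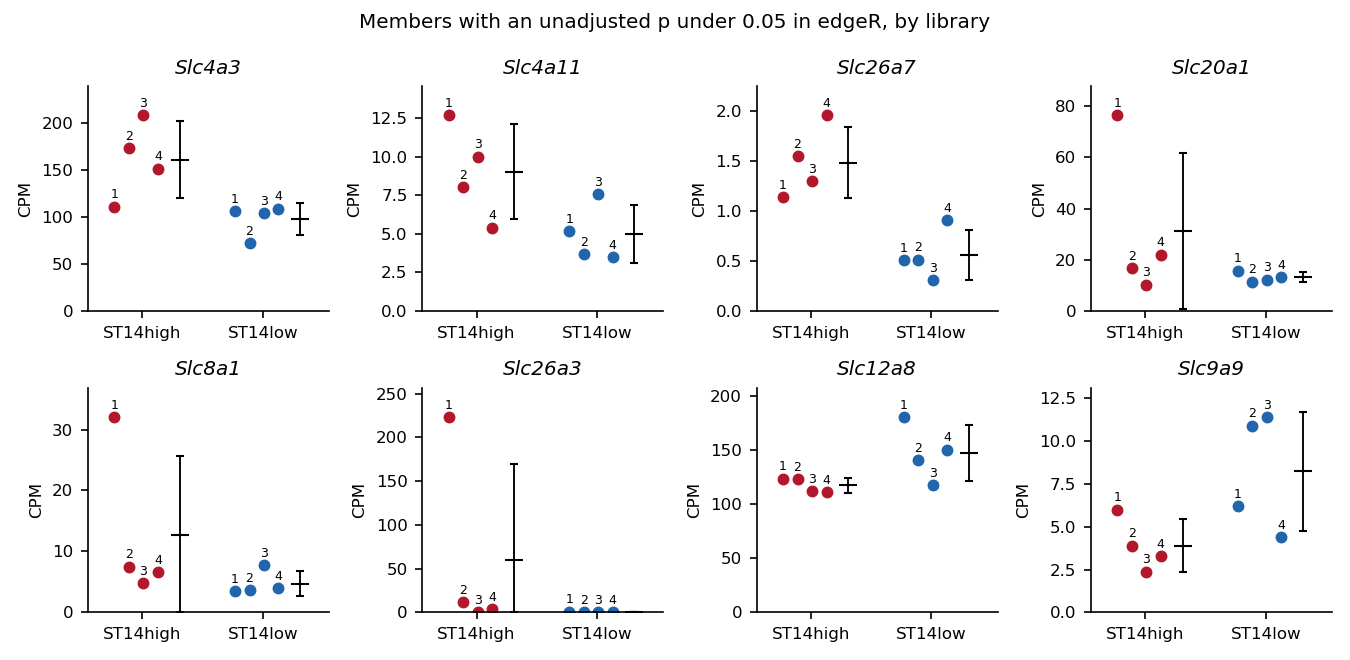
CPM in each library (points numbered by replicate) of the 8 members with an unadjusted p under 0.05, with the mean and SD (n = 4) beside each population, the lower bar ending at 0 where the SD exceeds the mean. Slc4a3 and Slc26a7 show no overlap, and for Slc20a1, Slc8a1 and Slc26a3 the mean of ST14high is set by replicate 1, at 76.4, 32.1 and 223 CPM.

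In the anion exchanger family Slc26, Slc26a3, the chloride-bicarbonate exchanger DRA of the intestinal surface, had the highest fold change of the 38 tested members. It was at 223, 11.6, 0.472 and 3.65 CPM in ST14high replicates 1 to 4 and at 0.938, 0, 0.463 and 0.156 CPM in ST14low replicates 1 to 4. ST14high replicate 1 was far above all others and replicate 2 was next, while ST14high replicate 3 overlapped with ST14low. The fold change was 7.29 (SE 1.95) with an adjusted p of 0.282 in edgeR, DESeq2 gave no adjusted p, and the exact two-sided permutation p was 0.0571. Without ST14high replicate 1 the fold change was 3.76, and DESeq2 then gave an adjusted p of 0.039. That call carries no weight, because Slc26a3 was past the count filter in only 2 ST14low libraries and entered through ST14high. Slc26a7, an exchanger of chloride and bicarbonate known from kidney and stomach, was near the detection limit at 1.14, 1.55, 1.30 and 1.96 CPM in ST14high replicates 1 to 4 and at 0.511, 0.512, 0.309 and 0.907 CPM in ST14low replicates 1 to 4. Every ST14high library lay above every ST14low library, and the gene passed the count filter through ST14high. The fold change was 1.36 (SE 0.56), with an adjusted p of 0.497 in edgeR and an exact two-sided permutation p of 0.0286. The sulfate carriers Slc26a2 (15.4 to 89.7 CPM), Slc26a11 (7.57 to 18.1 CPM) and Slc26a1 (2.84 to 7.97 CPM), together with Slc26a10 (1.87 to 8.71 CPM) and the apical exchanger Slc26a6 (2.08 to 5.85 CPM), overlapped between the populations.

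In the sodium-proton exchanger family Slc9, the Golgi exchanger Slc9a8 and the scaffolds differed little. Slc9a8 lay at 69.7 to 96.5 CPM with a fold change of -0.0099 (SE 0.14). The scaffold Slc9a3r1, which ties exchangers and CFTR to the cytoskeleton below the apical membrane, lay at 179.8 to 304 CPM with a fold change of 0.036 (SE 0.19), and Slc9a3r2 at 41.1 to 79.0 CPM with -0.22 (SE 0.19). The endosomal exchanger Slc9a9 showed the lowest fold change of the 38 tested members. It was at 6.00, 3.90, 2.39 and 3.29 CPM in ST14high replicates 1 to 4 and at 6.22, 10.9, 11.4 and 4.38 CPM in ST14low replicates 1 to 4. The ST14high libraries were mostly lower, and the populations overlapped through ST14high replicate 1 and ST14low replicate 4. The fold change was -1.08 (SE 0.42), with an adjusted p of 0.474 in edgeR and an exact two-sided permutation p of 0.0571; without ST14high replicate 1 it was -1.36. The 8 macrophage and Kupffer cell markers, none at 0 throughout, also summed lower in ST14high. They reached 242 to 312 CPM there, against 316 to 794 CPM in ST14low. Csf1r made up most of the ST14high sums, at 161 to 236 CPM, and overlapped with ST14low, at 199 to 312 CPM. Of the others, only Emr1 and Vsig4 did not overlap, both lower in ST14high, and Cd68 was highest in ST14high replicate 1. The part of these cells in the result was not tested. The Golgi exchanger Slc9a7 (7.48 to 11.6 CPM) and Slc9a5 (1.49 to 6.41 CPM) overlapped between the populations.

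In the cation-chloride family Slc12, the potassium-chloride cotransporters let chloride leave the cell together with potassium, and Slc12a7 and Slc12a4 differed little. Slc12a7 was at 248, 225, 257 and 247 CPM in ST14high replicates 1 to 4 and at 279.9, 233, 259 and 231 CPM in ST14low replicates 1 to 4. All libraries lay within a narrow range, and the log2 difference was -0.037 (SE 0.12), 95% interval -0.30 to 0.23. Slc12a4 (KCC1) lay at 55.6 to 106 CPM, with a fold change of 0.044 (SE 0.20). Slc12a9 ranged over 32.5 to 41.7 CPM and the neuronal KCC2, Slc12a5, over 1.70 to 6.89 CPM. Slc12a8 was lower in ST14high, at 124, 123, 112 and 111 CPM in ST14high replicates 1 to 4 and at 181, 141, 118 and 151 CPM in ST14low replicates 1 to 4. The ST14high libraries lay close together, and ST14low replicate 3 lay among them. Its log2 fold change was -0.33 (SE 0.14), with an adjusted p of 0.510 in edgeR. Slc12a2, the sodium-potassium-chloride cotransporter NKCC1 that was set aside by the rule, lay at 39.3 to 88.2 CPM with a fold change of -0.058 (SE 0.26).

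Of the phosphate carriers, Slc20a2 (PiT2) was at 75.3, 88.3, 99.4 and 96.8 CPM in ST14high replicates 1 to 4 and at 120.2, 97.4, 101 and 105 CPM in ST14low replicates 1 to 4. Most ST14low libraries lay above the ST14high libraries, with overlap, and the fold change was -0.23 (SE 0.13), with an adjusted p of 0.589 in edgeR. Its locus overlaps AI316807 on the opposite strand, which had 5926 counts, and reads of the pair cannot be told apart without strand. Slc20a1 (PiT1) was at 76.4, 16.6, 10.3 and 21.9 CPM in ST14high replicates 1 to 4 and at 15.8, 11.4, 12.2 and 13.3 CPM in ST14low replicates 1 to 4. ST14high replicate 1 alone stood far above, and the fold change of 1.24 (SE 0.54) was 0.30 without it. Slc34a2 (NaPi-IIb), an apical phosphate cotransporter, was at 25.3, 24.6, 38.8 and 28.3 CPM in ST14high replicates 1 to 4 and at 38.9, 39.7, 31.8 and 24.7 CPM in ST14low replicates 1 to 4. Its libraries overlapped widely, with a fold change of -0.21 (SE 0.21).

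Of the calcium exchangers, Slc24a6 (NCLX), which acts in mitochondria, had the highest length-corrected level, 11.1 RPKM as the mean of all libraries. It was at 27.3, 26.7, 23.2 and 26.7 CPM in ST14high replicates 1 to 4 and at 25.9, 19.7, 29.5 and 24.9 CPM in ST14low replicates 1 to 4, with a fold change of 0.059 (SE 0.16) and libraries that overlapped. Slc8a1 (NCX1), the exchanger best known from heart muscle, was at 32.1, 7.48, 4.75 and 6.62 CPM in ST14high replicates 1 to 4 and at 3.45, 3.64, 7.72 and 3.97 CPM in ST14low replicates 1 to 4. ST14high replicate 1 was the highest library and ST14low replicate 3 overlapped with the rest of ST14high. Its fold change of 1.46 (SE 0.61) had an adjusted p of 0.504 in edgeR and was 0.44 without ST14high replicate 1. Slc24a3 was at 7.96, 2.55, 0.189 and 3.35 CPM in ST14high replicates 1 to 4 and at 1.88, 0.768, 0.617 and 1.19 CPM in ST14low replicates 1 to 4. It too was highest in ST14high replicate 1, and its fold change was 1.62 (SE 0.88), or 0.83 without that library. The 10 markers of fibroblasts, stellate and muscle cells were all detected and summed to 2589.6 CPM in ST14high replicate 1, 596 to 801 CPM in the other ST14high libraries and 240.3 to 531 CPM in ST14low. In ST14high replicate 1, 8 of them were highest, while Rgs5 was lowest there at 115 CPM. Rgs5 made up most of each ST14low sum, at 156 to 351 CPM. The part of these cells in the result was not tested. Slc24a5 (11.0 to 23.0 CPM), Slc8a2 (0.617 to 2.72 CPM) and Slc8a3 (0 to 1.19 CPM) overlapped between the populations.

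ST14high replicate 1 was the highest library for 13 of the 38 tested members (34.2%), against 23% of all genes. A set of apical and epithelial exchangers was high there, lower in ST14high replicate 2, and low elsewhere; its genes were picked after their values were seen. Besides Slc26a3, it held Slc9a3 (NHE3), the sodium-absorbing exchanger of intestine and kidney, at 80.7, 4.89, 0 and 0.148 CPM in ST14high replicates 1 to 4 and at 0.298, 0.102, 0 and 0.125 CPM in ST14low replicates 1 to 4. Slc9a4 (NHE4), known from the stomach, was at 39.2, 3.90, 0 and 0 CPM in ST14high replicates 1 to 4 and at 0.298, 0, 0 and 0.188 CPM in ST14low replicates 1 to 4. Its neighbour on chromosome 1, Slc9a2 (NHE2), was at 26.2, 1.79, 0 and 0.683 CPM in ST14high replicates 1 to 4 and at 0.170, 0, 0 and 0.0625 CPM in ST14low replicates 1 to 4. In each of these 3 genes ST14high replicate 1 was the highest library and replicate 2 the next. Slc26a9, a chloride carrier of the gastric and airway epithelium, was at 6.63, 1.67, 0 and 0.890 CPM in ST14high replicates 1 to 4 and at 0.213, 0, 0 and 0.156 CPM in ST14low replicates 1 to 4. In the mm9 coordinates of the deposited files, Slc9a4 lies at chr1:40637071-40687576 and Slc9a2 at chr1:40738556-40825730. These 4 genes did not pass the count filter with all libraries. With ST14high replicate 3 left out, DESeq2 gave adjusted p-values of 0.000819 for Slc26a3 and 0.0436 for Slc20a1, in a fit that called 3.03% of all genes. Slc9a2 and Slc26a9 were also called in that fit, but that library was at 0 for both and they passed the filter there through ST14high alone, so their calls carry no weight. Slc26a3, past the filter in only 2 ST14low libraries, also entered that fit through its ST14high libraries. Its call carries no weight either. With ST14high replicate 4 left out DESeq2 called Slc26a3 at an adjusted p of 0.00946 (1.56% of all genes called), with the same limit. With any other library left out DESeq2 called none of the members, apart from the calls without replicate 1 given above. For Slc20a1, called without ST14high replicate 3, that library was the lowest of ST14high, at 10.3 CPM. Replicate 1 was its highest, at 76.4 CPM, and without replicate 1 its fold change in edgeR was 0.30.

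Several marker sums of other tissues were also highest in ST14high replicate 1, that of endothelium only just. The 11 pancreatic acinar markers summed to 8881 CPM in ST14high replicate 1, 2.60 to 1256 CPM in the other ST14high libraries and 1.64 to 95.5 CPM in ST14low, with Prss1 and Amy2a5 at 0 in all libraries and the other 9 all highest in ST14high replicate 1. A list of 16 gut and large duct mucosa genes, chosen with the data in view, reached 624 CPM in ST14high replicate 1, 82.9 to 113 CPM in the other ST14high libraries and 70.4 to 82.8 CPM in ST14low. Of these, 12 were highest in ST14high replicate 1, Tff1 and Gkn2 had no count in any library, and Muc5ac and Cdx2, which define gastric pit and intestinal epithelium, had 4 counts each over all libraries. Mesothelial markers (6 genes, none at 0 throughout) summed to 1021 CPM in ST14high replicate 1, 298 to 402 CPM in the other ST14high libraries and 156 to 269 CPM in ST14low. All but Gpm6a were higher in every ST14high library than in any ST14low library, as was Msln at 36.7 to 220 CPM against 6.07 to 17.4 CPM. The 8 endothelial markers summed to 1038 CPM in ST14high replicate 1, 18.9 to 306 CPM in the other ST14high libraries and 239.7 to 1032 CPM in ST14low. Of these, Kdr and Stab2 were highest in ST14low replicate 3. The part of these cells in the levels of the exchangers was not tested.

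**Figure D4:**
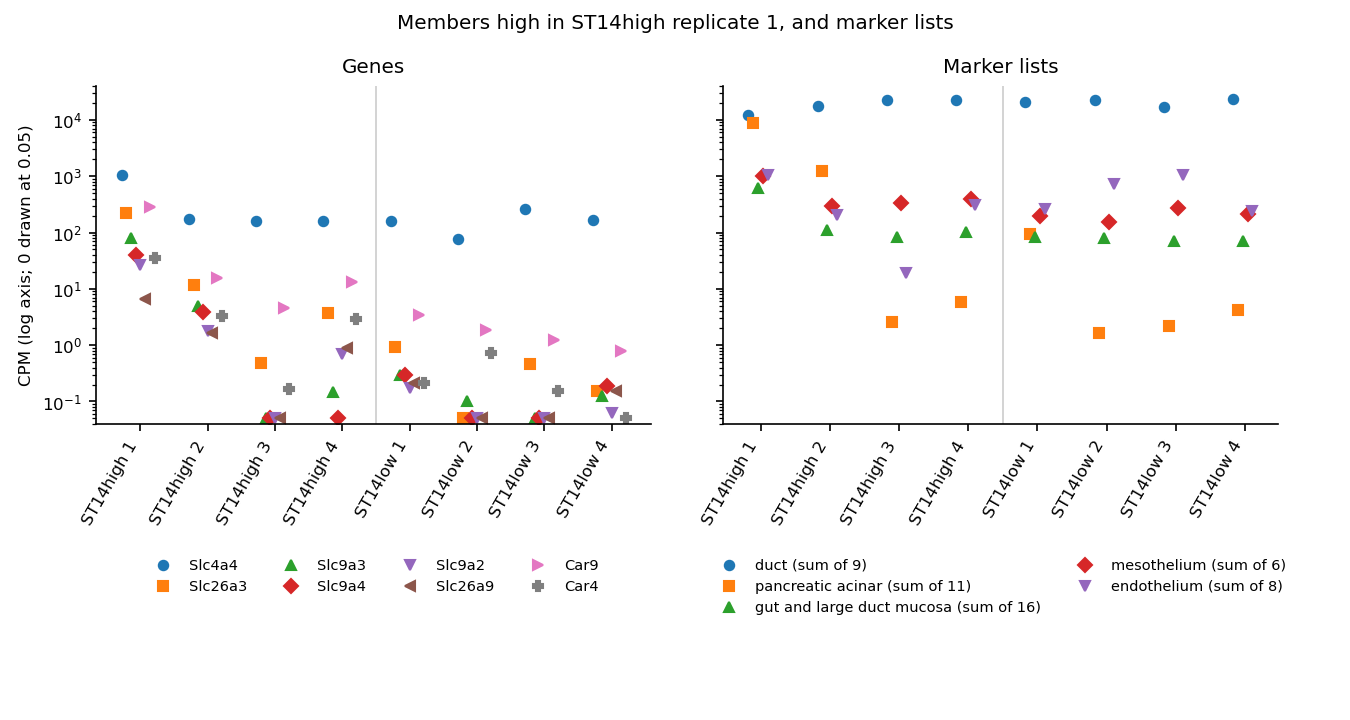
CPM in each library (log axis, values of 0 drawn at 0.05) of 6 exchangers and 2 carbonic anhydrases (left) and summed CPM of 5 marker lists (right). All 8 genes are highest in ST14high replicate 1, from 6.63 CPM for Slc26a9 to 1046 CPM for Slc4a4, as are the acinar and mucosal lists.

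For 3 of the exchangers that were high together in ST14high replicate 1, the 250 bases before the gene's start are shown to let their promoters be compared, from RefSeq in build GRCm38.p6, which differs from the mm9 of the files. Capitals mark matches on either strand to 4 motifs, and position -1 is the base before the start. The TATA box was searched for with the letters TATAAA. For the GC box, which SP factors bind, the letters were GGGCGG. The remaining motifs were CCAAT and the consensus site of HNF1 factors. Slc26a3 lies at chr12:31437969-31438218, Slc9a3 at chr13:74121163-74121412 and Slc26a9 at chr1:131743772-131744021, all read on the plus strand.
Slc26a3: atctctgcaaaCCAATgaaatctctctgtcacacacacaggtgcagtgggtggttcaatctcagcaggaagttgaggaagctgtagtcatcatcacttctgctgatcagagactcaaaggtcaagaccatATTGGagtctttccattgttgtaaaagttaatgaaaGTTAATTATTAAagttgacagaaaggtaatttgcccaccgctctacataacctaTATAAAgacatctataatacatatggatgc
Slc9a3: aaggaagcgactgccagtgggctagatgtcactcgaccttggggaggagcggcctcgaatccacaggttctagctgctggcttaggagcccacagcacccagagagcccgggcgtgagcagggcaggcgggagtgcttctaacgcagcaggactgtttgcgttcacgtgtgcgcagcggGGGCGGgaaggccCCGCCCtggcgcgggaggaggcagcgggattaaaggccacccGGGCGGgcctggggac
Slc26a9: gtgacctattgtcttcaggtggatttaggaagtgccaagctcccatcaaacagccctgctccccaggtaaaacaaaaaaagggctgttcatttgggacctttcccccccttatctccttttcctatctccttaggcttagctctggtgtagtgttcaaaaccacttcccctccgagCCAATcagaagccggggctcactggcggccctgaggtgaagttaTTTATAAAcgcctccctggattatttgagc
The window of Slc26a3 holds 1 TATA box at position -30, 2 CCAAT boxes and 1 HNF1 site at position -84. That of Slc26a9 holds 2 TATA matches that overlap each other and 1 CCAAT box at position -74, and that of Slc9a3 holds 3 GC boxes and no TATA match. Over all 32851 promoter windows of this length, 12.4% held TATAAA, 32.7% GGGCGG, 33.8% CCAAT and 0.0609% (20 windows) the HNF1 site. No motif of the 4 was shared by all 3 windows. A match is a description of the letters and not of binding.

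Among the partners of these carriers, 5 lists were examined, and no gene in them passed an adjusted p of 0.05 in edgeR (0% of all genes) or in DESeq2 (1.72%). DESeq2 gave no adjusted p for the carbonic anhydrases Car9 and Car12, so its threshold was not applied to them. In the carbonic anhydrases, 2 of 13 tested genes had an unadjusted p under 0.05, both higher in ST14high (6.89% of all genes), and the median log2 fold change was 0.18. Car9, a membrane-bound enzyme of the outer cell surface, was at 283, 15.8, 4.49 and 13.5 CPM in ST14high replicates 1 to 4 and at 3.37, 1.84, 1.23 and 0.782 CPM in ST14low replicates 1 to 4. The lowest ST14high library lay above the highest ST14low library. The fold change was 5.41 (SE 1.35), with an adjusted p of 0.253 in edgeR and 2.61 as the fold change without ST14high replicate 1. Car4, also facing outward, was at 35.7, 3.34, 0.165 and 2.97 CPM in ST14high replicates 1 to 4 and at 0.213, 0.717, 0.154 and 0 CPM in ST14low replicates 1 to 4, with a fold change of 5.25 (SE 1.58), or 2.96 without ST14high replicate 1. As for Slc26a3, ST14high replicate 1 was far above the rest. Car4 was past the count filter of 0.421 CPM in ST14high replicates 1, 2 and 4, but in ST14low only in replicate 2. It thus passed mostly through ST14high, and its place in the count adds no weight. Cytosolic Car2 was at 435, 114, 111 and 138 CPM in ST14high replicates 1 to 4 and at 111, 141, 67.1 and 97.4 CPM in ST14low replicates 1 to 4, a fold change of 0.94 (SE 0.45), or 0.21 without ST14high replicate 1, which was again the highest library. Car3 overlapped widely at 15.3 to 106 CPM, with a fold change of -0.15 (SE 0.47).

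In the sodium pump list, 2 of 10 tested genes had an unadjusted p under 0.05, both higher in ST14high (6.89% of all genes), and the median was 0.17. The subunit Atp1b1 lay at 920.1 to 1389 CPM with a fold change of 0.16 (SE 0.16). Fxyd7, a small modulator of the pump, was scarce at 1.20, 1.11, 1.53 and 2.58 CPM in ST14high replicates 1 to 4 and at 0.469, 0.154, 0.463 and 0.250 CPM in ST14low replicates 1 to 4. Its populations did not overlap, and the fold change was 2.30 (SE 0.64) with an adjusted p of 0.287 in edgeR. Fxyd7 was past the count filter of 0.421 CPM in every ST14high library but not in ST14low replicates 2 and 4. It thus passed through ST14high, and neither its lack of overlap nor its place in the count adds weight. Of the 3 tested calcium pumps of the plasma membrane, 1 had an unadjusted p under 0.05, higher in ST14high (6.89% of all genes), and their median was 0.47. This was Atp2b1, at 119, 93.5, 93.8 and 103 CPM in ST14high replicates 1 to 4 and at 60.7, 55.4, 92.6 and 87.7 CPM in ST14low replicates 1 to 4, with no overlap, a fold change of 0.47 (SE 0.19) and an adjusted p of 0.481 in edgeR. Atp2b4 lay at 15.4 to 75.8 CPM with 0.37 (SE 0.48), or -0.33 without ST14high replicate 1.

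Of the 19 tested kinases and scaffolds that regulate the carriers, 0 had an unadjusted p under 0.05 in edgeR (9.56% of all genes), and the median was -0.0016. Ezr (ezrin), which anchors the NHERF scaffolds to actin, was the most abundant by RPKM, at 995, 550.5, 624 and 534 CPM in ST14high replicates 1 to 4 and at 559, 702, 409 and 496 CPM in ST14low replicates 1 to 4. ST14high replicate 1 was highest, and the fold change was 0.32 (SE 0.24), or 0.071 without it. The kinase Sgk1 lay at 268 to 491 CPM with -0.24 (SE 0.19). Of the 6 tested genes of phosphate and pyrophosphate handling, 0 had an unadjusted p under 0.05 in edgeR (9.56% of all genes), and the median was -0.086. The pyrophosphate exporter Ank lay at 41.6 to 71.9 CPM with -0.032 (SE 0.18), and Enpp1, which makes pyrophosphate, at 22.7 to 44.9 CPM with -0.23 (SE 0.19).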

How the data were processed

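RNA sequencing libraries of ST14high and ST14low duct cells were analysed, 4 of each, grouped by the labels. The submitters' processing notes name CASAVA 1.8.2, Bowtie 1.0.0 and genome build mm9 but give them no role. How reads were counted, on which annotation and with what strand setting, is not given in the sources used here. The deposited files list, per the file headers, raw counts of each transcript beside RPKM, which the authors scaled by length and depth. Counts were tested; RPKM served only to compare levels between genes.

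The transcript with the most reads stood for each of 20377 symbols. The populations were compared in edgeR 4.0.16 under R 4.3.3 (TMM, filterByExpr with a minimum count of 10, quasi-likelihood test, population as the only term), adjusted by the Benjamini-Hochberg method over 13749 genes with a threshold of 0.05. Fold changes are log2 ratios of ST14high to ST14low. For single genes an exact two-sided permutation test was run on mean log2(CPM + 0.5) over 70 arrangements, with a smallest p of 0.0286. Depth ranged from 6398307 to 42769988 counts, and all 28 pairs of libraries differed by more than counting noise. Alternatives were DESeq2 1.42.0, limma 3.58.1 (voom with quality weights), other scalings and filters, the longest transcript, a replicate block, leaving out libraries, and transporters only. The edgeR fit was run on simulated counts, drawn with the same spread for all genes and no library set apart. That run therefore does not cover a library such as ST14high replicate 1. Figures were drawn with matplotlib 3.10.9 in Python 3.11.15.

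Named members were the most abundant of each family, the 12 most abundant of all members, those with an unadjusted p under 0.05 or no overlap between populations, those averaging 1 CPM or more with 1 library over 3 times the median, and the 3 that are not transporters. Of each partner list, the 2 most abundant genes and those with an unadjusted p under 0.05 were named. Slc9a2, Slc9a3, Slc9a4 and Slc26a9 fall outside this rule and were chosen after their values were seen. The members and lists were chosen with earlier results of these data known. RefSeq promoters matched 41 of the 54 members, and Slc9a2 and Slc9a4 have none printed. Some members and partners counted here are not reported by name.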

Additional observations from a re-analysis of the deposited data

Results flagged for a closer look

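In 14 of the 78 groups of 4 libraries examined, 1 library lay apart from the other 3 by Dixon's criterion. Chance flags about 1 in 20 groups of unselected genes, but several genes here were named because 1 library was high, so the number flagged cannot be read against that rate. In 10 of the 14 it was ST14high replicate 1, which was above the other ST14high libraries for Slc4a4 (1046 CPM), Slc26a3 (223 CPM), Slc8a1 (32.1 CPM), Slc9a3 (80.7 CPM), Slc9a4 (39.2 CPM) and Slc9a2 (26.2 CPM). The same library stood above the others for the carbonic anhydrases Car2 (435 CPM), Car9 (283 CPM) and Car4 (35.7 CPM) and for the calcium pump Atp2b4 (75.8 CPM). ST14high replicate 3 lay below the other ST14high libraries for Slc24a6 (23.2 CPM) and above them for St14 (354 CPM). Among ST14low libraries, replicate 3 was high for Slc8a1 (7.72 CPM) and replicate 2 low for Slc4a3 (72.1 CPM).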

How the results depend on the processing

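Of 622 fold changes of the 35 named genes under the alternatives, 589 kept their direction and their side of the adjusted threshold, and 33, in 12 genes, changed sign; the smallest adjusted p among these values was 0.0645. No alternative of edgeR or limma called a member. Beside these, DESeq2 called 0 to 4 members when 1 library was left out, an alternative chosen after seeing the data. Of the 4, called without ST14high replicate 3, Slc9a2, Slc26a9 and Slc26a3 passed the filter through ST14high. The remaining one, Slc20a1, was highest in ST14high replicate 1, and its fold change in edgeR was 0.30 without that library. The count of members at an unadjusted p under 0.05, 8 with all libraries, was 4 to 9 with 1 library left out and 5 with both ST14high replicate 1 and ST14low replicate 2 left out. The count without overlap, 2, was 1 on unscaled totals, 1 with a filter of 5 CPM, 3 to 12 with 1 library left out and 6 with both left out. For both counts under the alternatives, the share of all genes was taken only for the unadjusted p without ST14high replicate 1. The rest are not a result about the members. The median fold change of 0.22 was 0.042 with that filter, 0.072 in limma voom, -0.058 with both left out and 0.045 to 0.33 with 1 left out. Signs changed for Slc9a3r1 with upper-quartile scaling (-0.0085), for Slc4a8 (-0.68) and Ank (0.11) in limma voom, and with both libraries left out for Slc4a4 (-0.28), Slc24a6 (-0.068), Slc4a8 (-0.68), Atp2b4 (-0.12) and Ank (0.11). With 1 library left out, ranges that crossed 0 were Ank -0.12 to 0.093, Atp2b4 -0.33 to 0.57, Car3 -0.45 to 0.17, Slc12a2 -0.28 to 0.057, Slc12a4 -0.077 to 0.25, Slc12a7 -0.085 to 0.017, Slc24a6 -0.054 to 0.14, Slc4a2 -0.047 to 0.14, Slc4a4 -0.038 to 1.49, Slc4a8 -0.80 to 0.64, Slc9a3r1 -0.063 to 0.20, Slc9a8 -0.11 to 0.064. The cause was not tested. A replicate block gave 3 members at an unadjusted p under 0.05 and -0.75 for Slc4a8; same-numbered samples correlated at -0.12 to 0.052, so the numbers were not taken as pairs. ST14low replicate 3, with 6398307 counts, limits scarce members such as Slc26a7 and Slc8a3.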

Other observations

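The kinases that switch the Slc12 cotransporters are WNK kinases, which activate Stk39 (SPAK) and Oxsr1 (OSR1). These genes were singled out after their values were seen. Wnk1 lay at 271 to 520.3 CPM over the 8 libraries, Wnk2 at 169 to 249 CPM and Wnk4 at 43.2 to 72.9 CPM. Stk39 lay at 32.6 to 46.3 CPM, Oxsr1 at 23.7 to 30.6 CPM and Cab39, the scaffold that activates both, at 164 to 249 CPM. Their log2 fold changes were 0.14 (SE 0.19) for Wnk1, -0.0016 (SE 0.15) for Wnk2, 0.11 (SE 0.19) for Wnk4, 0.23 (SE 0.14) for Stk39, 0.055 (SE 0.14) for Oxsr1 and 0.18 (SE 0.13) for Cab39, and none passed an adjusted p of 0.05 in edgeR.

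Ahcyl2, a relative of the IRBIT protein that binds bicarbonate cotransporters, was at 226, 81.4, 58.6 and 63.1 CPM in ST14high replicates 1 to 4 and at 80.5, 63.4, 77.8 and 70.9 CPM in ST14low replicates 1 to 4, with ST14high replicate 1 above the rest as for Slc4a4. Car12, a membrane-bound carbonic anhydrase, was at 15.0, 0.517, 0 and 0.920 CPM in ST14high replicates 1 to 4 and at 0.511, 0.205, 1.39 and 0.281 CPM in ST14low replicates 1 to 4. Both were also singled out after their values were seen, with fold changes of 0.55 (SE 0.40) for Ahcyl2 and 2.90 (SE 1.58) for Car12. Without ST14high replicate 1 both turned, to -0.11 for Ahcyl2 and -0.20 for Car12.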
